A study of Rattus norvegicus with 3 samples.

Results

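The multidrug ABC efflux transporters were described across 3 cultures of rat heart cells: Abcb1a and Abcb1b, which both encode P-glycoprotein, the multidrug resistance-associated protein genes Abcc1, Abcc2, Abcc3, Abcc4 and Abcc5, and Abcg2, which encodes breast cancer resistance protein. These 8 genes were matched to the probe sets of an Affymetrix 3' expression array that the platform annotation pairs with a single gene, and 7 of them had such a probe set, 9 probe sets in all, among 14218 genes measured by 20832 such probe sets, of 31099 on the array. Abcb1b had none of its own: the only probe set that names it names Abcb1a as well. The genes were chosen on the log2 differences between these same 3 arrays, so every value below is a description.

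The cells were cardiomyocytes isolated by enzyme digestion from the hearts of fetal Wistar rats, an outbred strain, and plated for 48 hours. Each culture then spent 24 hours in fresh culture medium, in medium conditioned by skeletal myoblasts (the precursor cells of skeletal muscle) or in medium conditioned by cardiac fibroblasts. The study asks what factors released by these donor cells do to cardiomyocytes under oxidative stress, and the arrays compare the media. Each medium had 1 array, so no difference has a replicate check, and none is given an error or a p-value. The number of arrays limits the precision.

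ABC transporters are membrane proteins that bind and hydrolyse ATP to move substrates across a membrane. P-glycoprotein expels hydrophobic drugs and limits their entry across the endothelium of brain capillaries, and rodents carry a pair of genes for it where humans carry a single one. The multidrug resistance-associated proteins export organic anions, among them conjugates of glutathione, the leukotriene C4 that Abcc1 carries and the cyclic nucleotides that Abcc4 and Abcc5 carry. Breast cancer resistance protein transports sulfated compounds, urate and many drugs, and marks the stem-like side population of several tissues.

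The values were log2 expression centred on the array that held the middle value of a probe set, and blank cells of the table were read as 0. Where a probe set has 2 values, the blank is its middle array, so a 0 there is not an absence of transcript. For the 8002 probe sets with 1 value and the 5980 with none, the blank arrays were read as ties with the middle array. How bright each gene was, and so how the members' levels compare, cannot be told from such values. Differences between arrays remain, and a log2 difference of 1 is 2-fold. As a measured yardstick of technical spread, 42 probe sets for spike-in control transcripts, which the array protocol adds to each labelling or hybridisation at a fixed dose, differed by at most 0.66 between myoblast-conditioned and fresh medium, 0.68 between fibroblast-conditioned and fresh medium, and 1.02 between both conditioned media. In myoblast-conditioned minus fresh medium the control differences ran from -0.014 to 0.66 around a median of 0.285. They were thus almost wholly upward there and not spread around 0. Whether the dose was in fact equal here is not known. Centring on these control probe sets subtracted from each array the median of its control values, with blanks read as 0. The median of all genes in myoblast-conditioned minus fresh medium then moved from 0.00 to -0.18. That shift is smaller than the 0.285 above, so part of the upward control difference remained. Fibroblast-conditioned minus fresh medium did not move, though the median control difference there was 0.086. In myoblast-conditioned minus fresh medium the share of genes at least 2-fold apart that were higher moved from 61.5% to 36.4%. In myoblast-conditioned minus fibroblast-conditioned medium that share moved from 35.0% to 21.4%.

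The arrays also differed in markers of other cells a heart digest can hold. Beside the counts of these and the later lists stand the shares of all genes at least 2-fold apart. In myoblast-conditioned minus fresh medium 1.35% of all genes were higher and 0.844% lower. In fibroblast-conditioned minus fresh medium 4.26% were higher and 2.6% lower. Endothelial marker genes (13 measured) were lower by 2-fold or more in 4 cases in myoblast-conditioned and in 10 in fibroblast-conditioned medium, each against fresh medium, with median log2 differences of -0.77 and -2.60. Of 12 macrophage marker genes, 10 were at least 2-fold higher in fibroblast-conditioned medium (median 2.04) and 1 in myoblast-conditioned medium (median -0.48). Of 15 cardiomyocyte marker genes, none was 2-fold higher and 5 were at least 2-fold lower in fibroblast-conditioned medium (median -0.73), against 1 higher and none lower in myoblast-conditioned medium (median -0.16). With arrays centred on the spike-in controls, the counts in myoblast-conditioned medium became 6 lower endothelial genes, 2 lower and 0 higher macrophage genes, and 1 higher and 1 lower cardiomyocyte gene. Centred values cannot show whether the defining cardiomyocyte genes were abundant, so the labelled cell type was not checked further. The 5 measured skeletal myoblast markers differed little, from -0.044 to 0.00 in myoblast-conditioned and from -0.11 to 0.00 in fibroblast-conditioned medium. Of 8 smooth muscle and pericyte markers, 3 were at least 2-fold higher in both conditioned media: Cnn1 at 3.02 in myoblast-conditioned and 2.69 in fibroblast-conditioned medium, Acta2 at 1.98 and 2.17, and Tagln at 1.33 and 2.75. In myoblast-conditioned medium 1 was lower, Rgs5 at -1.06, and the list's medians were 0.10 and 0.52, the first of which became -0.075 on the spike-in controls. Of 10 fibroblast markers, Pdgfra was lower at -1.42 and -1.48 and Thy1 was higher in fibroblast-conditioned medium at 1.69, with medians of -0.10 and 0.089, and on the spike-in controls 2 were lower in myoblast-conditioned medium. Of 5 erythroid markers only Hbb passed 2-fold, at -1.001 and -4.32, the former not with arrays centred on their nonblank median. Of 5 epicardial markers 1 was higher in myoblast-conditioned medium, and 1 was higher and 1 lower in fibroblast-conditioned medium. Except for the skeletal myoblast list, each marker list held genes that were at least 2-fold apart on the same arrays as the efflux genes, and their part in the differences below was not tested. In whole cultures, fewer cells of a type and less RNA per cell cannot be told apart.

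Abcb1a and Abcb1b are neighbours on rat chromosome 4. In the RefSeq gene table of the assembly GRCr8 the protein-coding genes in order are Crot, Abcb4, Abcb1b, Abcb1a and Rundc3b. The 250 bases before the RefSeq start site of each P-glycoprotein gene are shown because the probe sets of this pair gave the widest ranges over the arrays among those that name an efflux member. Both windows lie on the minus strand of GRCr8, Abcb1a at chr4:26397649-26397898 and Abcb1b at chr4:26280030-26280279, and capitals mark matches to the motifs that were searched.
Abcb1a: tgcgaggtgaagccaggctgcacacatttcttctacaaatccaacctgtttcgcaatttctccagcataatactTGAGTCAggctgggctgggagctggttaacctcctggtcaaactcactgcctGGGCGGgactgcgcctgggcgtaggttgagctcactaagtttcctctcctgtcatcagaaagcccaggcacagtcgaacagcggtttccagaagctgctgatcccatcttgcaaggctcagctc
Abcb1b: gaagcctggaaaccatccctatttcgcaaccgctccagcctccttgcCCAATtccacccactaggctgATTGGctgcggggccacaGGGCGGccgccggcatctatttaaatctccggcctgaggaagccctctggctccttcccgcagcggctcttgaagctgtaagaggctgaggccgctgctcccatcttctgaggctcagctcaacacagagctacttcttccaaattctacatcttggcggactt
The motifs were CCAAT (the CCAAT box), GGGCGG (the GC box), TGACNNNGC (the antioxidant response element), TGANTCA (the AP-1 site), TGACGTCA (the cyclic AMP response element), TGATGNAA (a C/EBP-ATF composite site), ACGTG (the hypoxia response core) and GCGTG (the xenobiotic response core), each on both strands. The cyclic AMP response element holds no other motif of this set, and no marked match in either window overlaps another. Abcb1a had an AP-1 match that begins 176 bases before the start and a GC box at 124. Of 33469 windows of this length in the RefSeq promoter table, 6.34% held an AP-1 match and 30.5% a GC box. Abcb1b had a GC box at 164 bases and CCAAT matches at 203 and 182 bases before the start, a motif found in 34.0% of windows. The longest run of bases that both windows share was 11 long, aggctcagctc, and began 11 bases before the start in Abcb1a and 54 in Abcb1b. The windows of Abcc1, Abcc2, Abcc4 and Abcg2 were searched too. Abcg2 held 4 GC box matches and the only cyclic AMP response element among the 6 windows, a motif in 1.59% of all windows. Abcc1 held 4 GC box matches, Abcc2 2 and Abcc4 1. The xenobiotic response core, found in 25.9% of windows, had 1 match in Abcc1 and 2 in Abcc4, and Abcc2 held 1 CCAAT match. A match is a string of letters and does not show that a factor binds there.

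Abcb1a was the efflux gene that stood furthest from fresh medium, in the myoblast-conditioned culture. Its values, as the mean of 2 probe sets, were -0.39 in fresh medium, 2.76 in myoblast-conditioned medium and 0.00 in fibroblast-conditioned medium. The myoblast-conditioned culture was thus far above the others, which lay close together. The log2 difference was 3.16 (8.93-fold) against fresh medium and 2.76 (6.80-fold) against fibroblast-conditioned medium, while fibroblast-conditioned medium exceeded fresh medium by 0.39, less than the spread of the spike-in controls reached. Of the 14218 genes, 2 had a higher difference between myoblast-conditioned and fresh medium, and 13 had a higher difference between both conditioned media.

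Both Abcb1a probe sets gave the same order. One read -0.27 in fresh medium, 2.69 in myoblast-conditioned and 0.00 in fibroblast-conditioned medium, and the other -0.52, 2.84 and 0.00, so the log2 differences between myoblast-conditioned and fresh medium were 2.96 and 3.35. That gap of 0.39 compares with a median gap of 0.32 over the 47 genes with 2 probe sets whose mean difference was at least 2-fold in this comparison. The 5 genes whose pair of differences from fresh medium lay nearest to that of Abcb1a (Euclidean distance between the pairs) were Slc7a11, the cystine transporter of glutathione synthesis (2.997 and 0.93), Angptl8, a lipoprotein lipase regulator (2.63 and 0.18), Ddit3, the stress transcription factor CHOP (3.09 and -0.20), the arginine transporter Slc7a3 (2.52 and 0.76) and the mitochondrial carrier Slc25a33 (2.37 and 0.37), with the differences for myoblast-conditioned and then fibroblast-conditioned medium in brackets. The nearest was 0.56 away, and 0 genes lay within 0.5. With the distance taken over the 3 array values, each gene centred on its mean, a setting chosen after the values were seen, Angptl8 was nearest at 0.38 and 2 genes lay within 0.5. Such distances say nothing of shared control.

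The probe set annotated to both Abcb1a and Abcb1b had a different order. It read -0.92 in fresh medium, 0.00 in myoblast-conditioned medium and 1.98 in fibroblast-conditioned medium. Fibroblast-conditioned medium was highest here, by 2.90 (7.46-fold) over fresh and 1.98 (3.95-fold) over myoblast-conditioned medium, and myoblast-conditioned medium exceeded fresh medium by 0.92 (1.89-fold). Which of the paired genes gave this signal cannot be told apart from the annotation, so it was counted for neither. Averaging it with the probe sets of Abcb1a, a setting chosen after the values were seen, gave differences from fresh medium of 2.41 for myoblast-conditioned and 1.23 for fibroblast-conditioned medium.

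The genes beside the pair did not share the large Abcb1a difference. Abcb4, which encodes the phospholipid exporter of bile and is the closest relative of the pair in the ABCB family, read -0.35 in fresh, 0.00 in myoblast-conditioned and 0.64 in fibroblast-conditioned medium. That is the order of the shared probe set, with differences from fresh medium of 0.35 and 0.99. Rundc3b, on the other side, differed from fresh medium by -0.041 and -0.11, and Crot by -0.036 and -0.14.

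**Figure D1:**
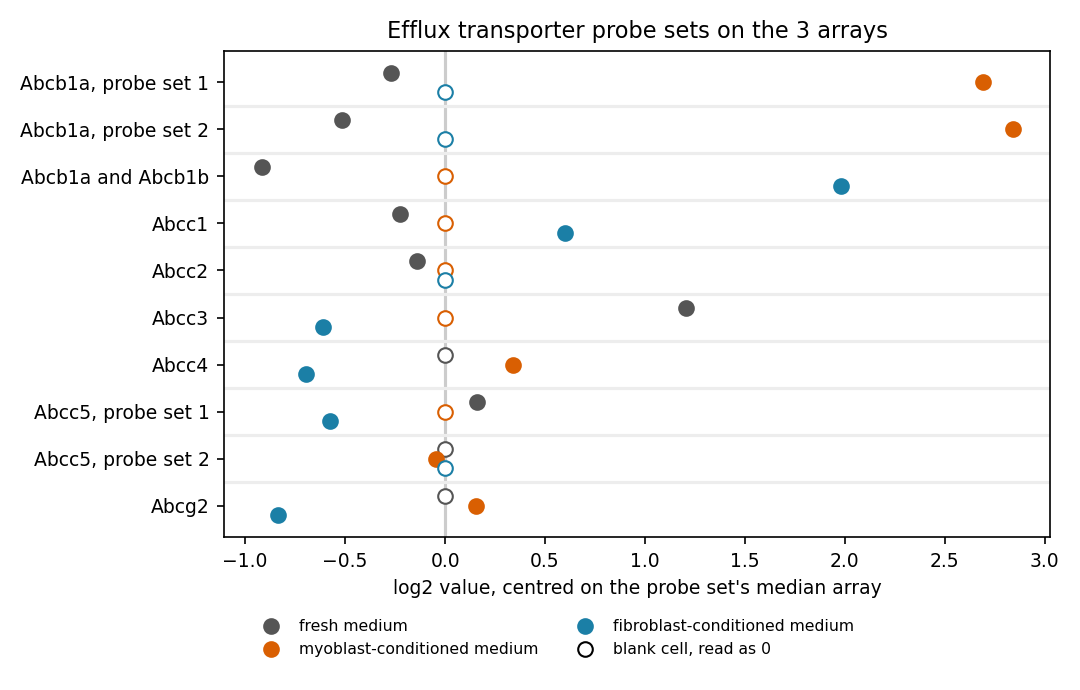
Centred log2 value (horizontal axis) of each probe set of the efflux genes on the 3 arrays, 1 point per array, with open points for blank cells read as 0. Both Abcb1a probe sets lie at 2.69 and 2.84 in myoblast-conditioned medium, whereas the probe set shared with Abcb1b is highest in fibroblast-conditioned medium at 1.98.

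Among the multidrug resistance-associated protein genes, Abcc3 was lower in both conditioned media. Abcc3 exports glucuronide conjugates and bile acids and sits on the basolateral side of liver and gut cells. Its single probe set read 1.20 in fresh medium, 0.00 in myoblast-conditioned medium and -0.61 in fibroblast-conditioned medium. Fresh medium was thus the highest and the conditioned media lay nearer to each other. The log2 difference from fresh medium was -1.20 (2.30-fold lower) in myoblast-conditioned and -1.82 (3.52-fold lower) in fibroblast-conditioned medium. Both exceeded every difference of the spike-in controls, while the 0.61 between the conditioned media did not. In myoblast-conditioned minus fresh medium 66 genes had a lower difference than Abcc3, and in fibroblast-conditioned minus fresh medium 95 had. The nearest genes in pattern were Prrg3 (-1.10 and -1.82), the myosin-binding protein gene Mybphl (-1.07 and -1.82), the copper-containing ferroxidase gene Heph (-1.04 and -1.80), the matrix gene Efemp1 (-1.32 and -1.65) and the ubiquitin ligase gene Rnf125 (-1.19 and -2.03), and 45 genes lay within a distance of 0.5. With the distance over the 3 array values 104 did. Both comparisons share the fresh medium array, so a low pair of values needs only that array to be high.

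Abcc1, a broadly expressed exporter of glutathione conjugates, read -0.23 in fresh, 0.00 in myoblast-conditioned and 0.60 in fibroblast-conditioned medium. It was highest in fibroblast-conditioned medium, by 0.83 (1.77-fold) over fresh medium, which exceeds every spike-in control but short of 2-fold. Its difference of 0.23 in myoblast-conditioned medium was within them, and the conditioned media differed by -0.60. Abcc2, the apical exporter of conjugated bilirubin in liver cells, had a single value, -0.14 in fresh medium, with both conditioned media at 0.00. Its difference of 0.14 from fresh medium became -0.038 in myoblast-conditioned medium when arrays were centred on the spike-in controls.

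The cyclic nucleotide exporters were lowest in fibroblast-conditioned medium, Abcc5 by only 1 of its 2 probe sets. Abcc4, which also releases prostaglandins, read 0.00 in fresh, 0.34 in myoblast-conditioned and -0.69 in fibroblast-conditioned medium. The conditioned media stood 1.04 apart (2.05-fold), just past the 1.02 of the spike-in controls, but this was 0.997 with arrays centred on their nonblank median and 0.859 on the spike-in controls, both under 2-fold. The difference from fresh medium was 0.34 and -0.69 (1.62-fold lower). The pattern of Abcc4 was a common one: 931 genes lay within a distance of 0.5 of it over the differences from fresh medium. The nearest named genes were Emp2, Slc18b1, Rragd, Lrpprc and Mccc1, all within 0.073. Abcc5 had 2 probe sets that did not give the same picture. One read 0.16 in fresh, 0.00 in myoblast-conditioned and -0.57 in fibroblast-conditioned medium, while the other had a single value, -0.044 in myoblast-conditioned medium. In fibroblast-conditioned minus fresh medium they gave -0.73 and 0.00, and a gap of 0.73 is wider than the median of 0.21 over the 3060 genes with 2 probe sets, though below their 95th percentile of 1.06. The gene's mean differed from fresh medium by -0.10 and -0.37.

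Abcg2 read 0.00 in fresh, 0.15 in myoblast-conditioned and -0.84 in fibroblast-conditioned medium. The fibroblast-conditioned culture stood below the others, by -0.84 (1.78-fold lower) against fresh medium. Between the conditioned media the difference was 0.99 (1.99-fold), under 2-fold and within the spread of the spike-in controls. The difference of 0.15 between myoblast-conditioned and fresh medium became -0.023 when arrays were centred on the spike-in controls. In the main values Abcg2 and Abcc4 thus shared an order over the arrays. On the spike-in controls they did not, since Abcc4 stayed above fresh medium there, by 0.16. Their differences between myoblast-conditioned and fresh medium were also within those of the spike-in controls. Abcc1 was highest in the culture where Abcg2 and Abcc4 were lowest.

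**Figure D2:**
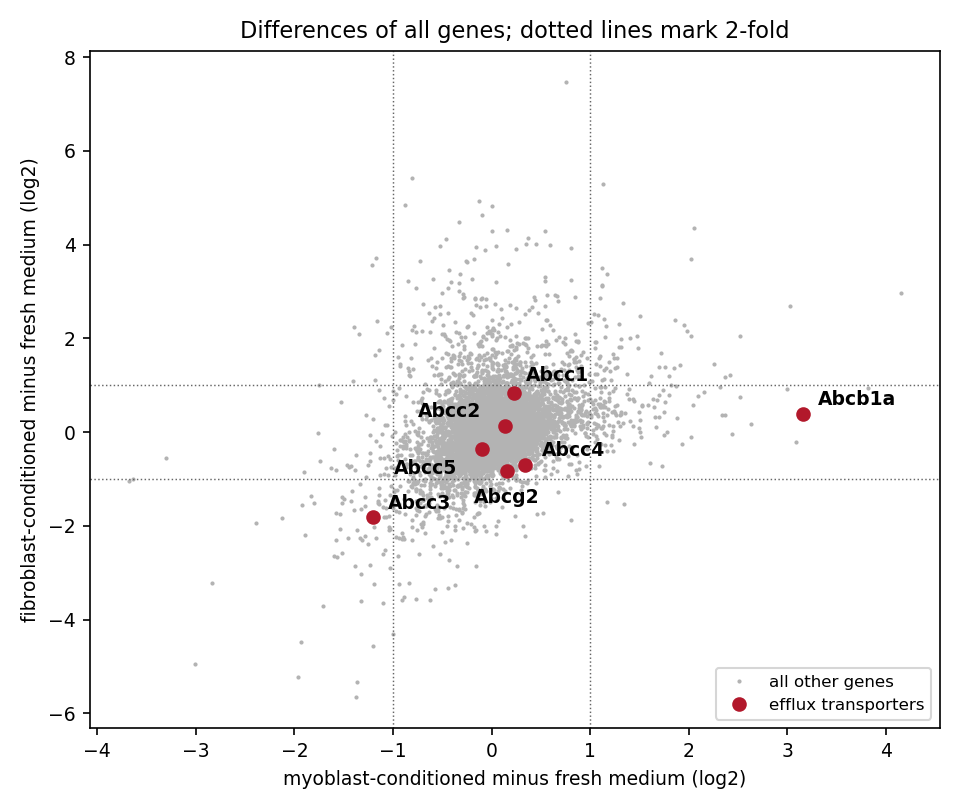
Log2 difference from fresh medium of every gene, myoblast-conditioned medium on the horizontal and fibroblast-conditioned medium on the vertical axis, with 7 efflux genes in red and dotted lines at 2-fold. Abcb1a lies far right at 3.16 and 0.39, Abcc3 low on the left at -1.20 and -1.82, and the others inside the dotted lines. Both axes share the fresh medium array.

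Counted together, 1 of 7 measured efflux genes was at least 2-fold higher in myoblast-conditioned than in fresh medium (Abcb1a), against 1.35% of all genes, and 1 was at least 2-fold lower (Abcc3), against 0.844%. In fibroblast-conditioned minus fresh medium none of the 7 was 2-fold higher, against 4.26% of all genes, and 1 was at least 2-fold lower (Abcc3), against 2.6%. Between myoblast-conditioned and fibroblast-conditioned medium 2 were at least 2-fold higher in the former (Abcb1a and Abcc4), against 2.12% of all genes, and none was 2-fold lower, against 3.94%. With either other centring Abcc4 fell short of 2-fold and the count was 1. These counts leave out the probe set shared by Abcb1a and Abcb1b. It stood at 2.90 in fibroblast-conditioned minus fresh medium and at -1.98 in myoblast-conditioned minus fibroblast-conditioned medium. Since the members were chosen with these values known, nothing is read from the shares. The median log2 differences of the members were 0.15, -0.37 and 0.61 in these 3 comparisons, beside medians of 0.00 over all genes, and the first of them became -0.023 with arrays centred on the spike-in controls. The second was -0.69 with the probe set of widest range, -0.71 with only probe sets that have 2 values, and -0.11 with the shared probe set counted as Abcb1b, a setting chosen after the values were seen. The shares and medians of all genes include 1627 genes that read 0 on all 3 arrays and so could not be 2-fold apart. No measured member was such a gene. The comparisons share arrays and are not independent of one another.

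The other listed ABC genes held no difference of the size of Abcb1a in myoblast-conditioned medium. Of 37 other ABC genes listed, 32 were measured. In myoblast-conditioned minus fresh medium 0 were 2-fold higher and 1 was at least 2-fold lower, the lipid transporter gene Abca8a at -1.46. The highest was Abcb6, a mitochondrial porphyrin transporter gene, at 0.63, followed by Abca5 at 0.52 and the ribosome recycling factor gene Abce1 at 0.47, against 3.16 for Abcb1a. In fibroblast-conditioned minus fresh medium 3 were at least 2-fold lower: Abca8a at -2.25 and both sulfonylurea receptor genes, Abcc8 at -1.58 and Abcc9 at -1.33, whose proteins regulate ATP-sensitive potassium channels and belong to the same subfamily as the multidrug resistance-associated proteins. None was 2-fold higher, and Abcb4 at 0.99 came closest, followed by Tap1 at 0.42 and Abca7 at 0.36. With arrays centred on the median of their nonblank values, Abcb4 passed 2-fold upward. Abca8a had the order of Abcc3 over the arrays, with 1.46 in fresh, 0.00 in myoblast-conditioned and -0.80 in fibroblast-conditioned medium.

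**Figure D3:**
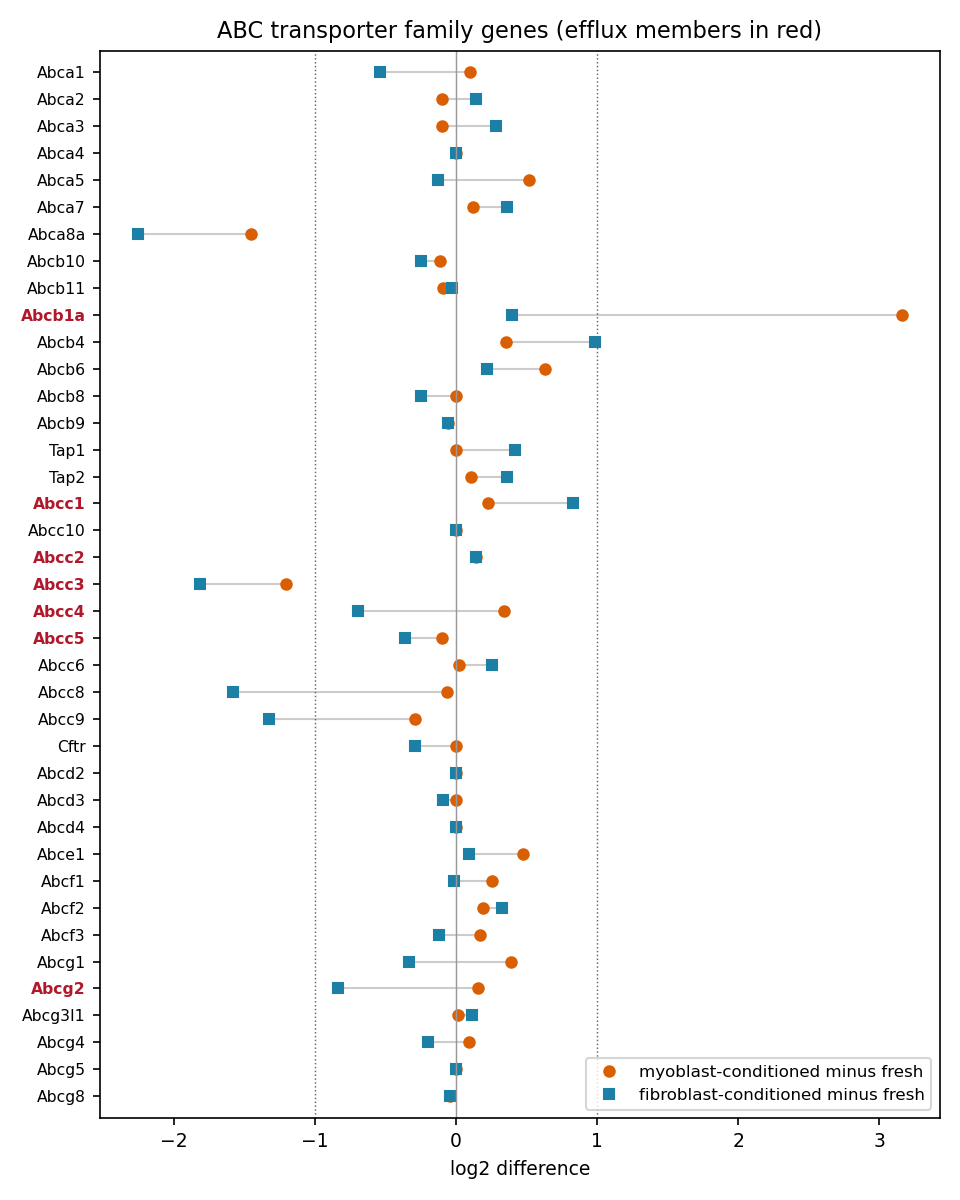
Log2 difference from fresh medium (horizontal axis) of the 39 listed and measured ABC genes, efflux members included, with circles for myoblast-conditioned and squares for fibroblast-conditioned medium and dotted lines at 2-fold. Among them Abcb1a alone passes the upper line, in myoblast-conditioned medium, and Abca8a, Abcc3, Abcc8 and Abcc9 pass the lower line in fibroblast-conditioned medium, Abca8a and Abcc3 also in myoblast-conditioned medium; with arrays centred on their nonblank median Abcb4 passes the upper line too.

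Genes of the supply and breakdown of glutathione, which Abcc-type exporters carry in conjugates, were then set beside them. Of 14 genes of glutathione supply and breakdown, 6 were at least 2-fold higher in myoblast-conditioned medium and none was 2-fold lower (median 0.45). They were the cysteine-producing enzyme gene Cth at 4.15, Slc7a11 at 2.997, the glutathione-degrading enzyme gene Chac1 at 2.34, Ggct at 1.75, Slc3a2 at 1.69 and Gclc at 1.13. With arrays centred on the spike-in controls 5 were at least 2-fold higher. In fibroblast-conditioned medium 1 was at least 2-fold higher, Cth at 2.96, and the median was 0.28. Of the transferases that attach glutathione to substrates, 21 were measured. They had a median of -0.16 in myoblast-conditioned medium, where Gstt3 at -1.71 was at least 2-fold lower, joined by Hpgds with arrays centred on the spike-in controls, and -0.36 in fibroblast-conditioned medium, where 4 were at least 2-fold lower, Gstt3 at -3.70, Gstm1 at -1.43, Gsta4 at -1.34 and Gstt1 at -1.16, and Mgst2 at 1.02 was 2-fold higher.

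Genes known to respond to the regulators of efflux transporters gave no uniform picture. Of 15 measured targets of the xenobiotic receptors PXR, CAR and AhR, 2 were at least 2-fold higher in myoblast-conditioned medium, the quinone reductase gene Nqo1 at 2.15 and the cytochrome P450 gene Cyp1b1 at 1.15, and only Nqo1 was with arrays centred on the spike-in controls. Cyp1b1 was at 2.03 in fibroblast-conditioned medium, the only target there past 2-fold. The AhR target Cyp1a1 was at -0.091 in both media and the PXR target Cyp3a23-3a1 at 0.22 in both. Of the receptor genes, Nr1i2 (PXR) was at -0.082 and 0.039 and Ahr at 0.12 and 0.49 in myoblast-conditioned and fibroblast-conditioned medium, and Nr1i3 (CAR) had no value on any array. Of 18 measured targets of Nrf2, which controls Abcc genes in liver, 5 were at least 2-fold higher in myoblast-conditioned medium: Slc7a11, Nqo1, the sulfiredoxin gene Srxn1 at 1.14, the glutathione synthesis gene Gclc at 1.13 and the haem oxygenase gene Hmox1 at 1.01. With arrays centred on the spike-in controls 2 were, Slc7a11 and Nqo1. In fibroblast-conditioned medium 2 were, the epoxide hydrolase gene Ephx1 at 1.34 and the malic enzyme gene Me1 at 1.21, and 3 were with arrays centred on their nonblank median. Of 21 measured transcriptional regulators of efflux genes, 2 were at least 2-fold higher in myoblast-conditioned medium, Ddit3 and Atf4 at 1.59, and none was 2-fold apart in fibroblast-conditioned medium. Of 20 genes of the ATF4 response, which overlaps the glutathione list, 17 were at least 2-fold higher in myoblast-conditioned and 5 in fibroblast-conditioned medium, and 0 were lower in either. On the spike-in controls 14 were higher in myoblast-conditioned medium, and on the nonblank median 6 were in fibroblast-conditioned medium. Other lists share genes too. Nqo1 is in the receptor target and Nrf2 lists, and Slc7a11 in the Nrf2, glutathione and ATF4 lists. Ddit3 is in the regulator and ATF4 lists. Of 14 NF-kB and inflammatory genes 8 were at least 2-fold higher and 0 lower in fibroblast-conditioned medium, and 9 were higher with arrays centred on their nonblank median. In myoblast-conditioned medium 0 were higher and 3 were lower, the chemokine genes Ccl2 at -1.21 and Cxcl1 at -1.18 and the adhesion molecule gene Vcam1 at -1.07, and 4 were lower with arrays centred on the spike-in controls. The 12 HIF targets had 3 at least 2-fold higher and 0 lower in myoblast-conditioned medium, and 0 higher and 1 lower in fibroblast-conditioned medium, the glucose transporter gene Slc2a1 at -1.06. The 6 genes of the scaffold that holds efflux pumps at the membrane were all within 2-fold, with the ezrin gene Ezr at -0.13 and -0.74 and the caveolin gene Cav1 at -0.74 and -0.0053.

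**Figure D4:**
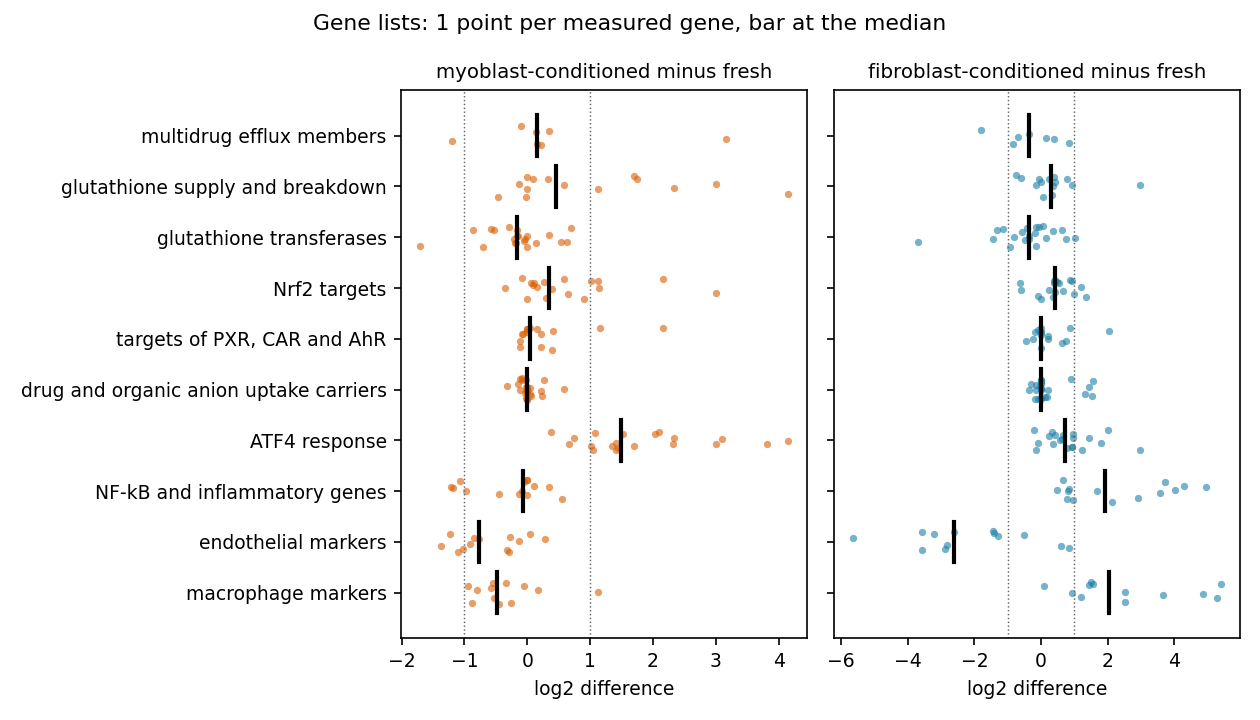
Log2 difference from fresh medium (horizontal axis) of each measured gene in 10 lists, 1 point per gene, with a bar at the list's median, for myoblast-conditioned medium on the left and fibroblast-conditioned medium on the right. The efflux members have a median near 0 in myoblast-conditioned medium with Abcb1a alone at 3.16, whereas the endothelial and macrophage medians in fibroblast-conditioned medium lie at -2.60 and 2.04.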

How the data were processed

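Total RNA from 3 cultures was extracted with a Qiagen RNeasy kit, labelled with the Affymetrix 3' IVT Express kit and hybridised to 1 array per medium, per the labels' protocols. The authors' processing used RMA, per the submitters' processing notes; its software is not stated in the sources. The deposited table is taken to be log2, as RMA gives, with each probe set centred on its median array, as the values show: 17117 probe sets had 2 values of opposite sign, 8002 had 1, 5980 had none and 0 had 3. Blanks were read as 0.

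The platform annotation gave 1 gene for 20832 probe sets, several for 436 and no name here for 9831. RefSeq symbols (GRCr8) replaced old ones by Entrez ID for 20764. Single-symbol probe sets of a gene were averaged. Differences of log2 values were counted at 2-fold or more. With 1 array per medium no test exists. Counting was tested on simulated data. Promoter windows came from the RefSeq table, which held 6 of the 8 members.

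Members, lists, tests and alternatives were chosen with earlier results of these data known. Every member is named; for a list, up to 3 genes with the largest differences each way, and others singled out after their values were seen; for a member at least 2-fold apart, the 5 nearest genes. Alternatives were other probe set summaries, no cross-hybridising probe sets, only probe sets with 2 values, 2 other centrings and thresholds of 1.5-fold and 3-fold. Python 3.11.15, pandas 2.3.3, NumPy 2.4.6 and Matplotlib 3.10.9 were used.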

Additional observations from a re-analysis of the deposited data

Results flagged for a closer look

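The probe set annotated to both Abcb1a and Abcb1b, which no comparison of single genes used, was 2.90 higher on the log2 scale in fibroblast-conditioned than in fresh medium. It is listed here because it is a signal above the control culture in data outside the main measurement. Its order over the arrays was not that of the probe sets of Abcb1a alone, which were highest in myoblast-conditioned medium.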

How the results depend on the processing

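Of 144 differences of single members recomputed over 7 settings, 133 moved by less than the SD of the spike-in probe sets in that comparison, 11 moved by more and 0 at least 2-fold apart changed sign. Many of the 144 could not move, so the 133 do not measure robustness. No member has more than 2 single-gene probe sets, so their median equals their mean, and none of these probe sets is a cross-hybridising one. Choices among probe sets cannot change a member that has 1. Centring on the spike-in controls left fibroblast-conditioned minus fresh medium unchanged. In myoblast-conditioned minus fresh medium it shifted every member by the same -0.18, past the SD of 0.155 there. Between the conditioned media the same shift was under the SD of 0.48. The 7 settings included the averaging of the shared probe set into Abcb1a, chosen after the data were seen. The count of members at least 2-fold apart between the conditioned media was 1 in place of 2 with either other centring, since Abcc4 went to 0.997 or 0.859, 5 at 1.5-fold (beside 15.0% of all genes in either direction) and 1 at 3-fold (2.38%). With the shared probe set counted as Abcb1b, chosen after the data were seen, the count was 3. In fibroblast-conditioned minus fresh medium it was 4 in place of 1 at 1.5-fold (16.1% of all genes), and 2 with the shared probe set averaged into Abcb1a or counted as Abcb1b, both chosen after the data were seen. In myoblast-conditioned minus fresh medium it was 1 in place of 2 at 3-fold (0.528%). The median of the members there was -0.023 in place of 0.15 with arrays centred on the spike-in controls, where Abcb1a was 2.98 and Abcc3 -1.38. The probe set with the widest range gave 3.35 for Abcb1a. Only probe sets with values on 2 arrays left 6 members. Signal over background is unknown, because centring removed it. No paired analysis was possible because each medium had 1 array.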

Other observations

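Of 24 measured carriers that bring drugs and organic anions into cells, none passed 2-fold in myoblast-conditioned medium. In fibroblast-conditioned minus fresh medium 4 were at least 2-fold higher, against 4.26% of all genes, and 0 lower, against 2.6%, around a median of 0.00. They were the organic anion transporters Slco3a1 at 1.56 and Slco4a1 at 1.45, the drug and toxin exporter Slc47a1 at 1.54, and the ergothioneine transporter Slc22a4 at 1.31. Slc47a1, which exports cations into bile and urine, was placed in this list with the uptake carriers. Prostaglandins are among the substrates of Abcc4. Of 17 genes of eicosanoid synthesis and receptors, 3 were at least 2-fold higher in fibroblast-conditioned medium, the cyclooxygenase gene Ptgs2 at 4.02, the prostaglandin receptor gene Ptger3 at 2.13 and the prostacyclin synthase gene Ptgis at 1.97, against 0 in myoblast-conditioned medium. Ptgs2 is also in the NF-kB list. Of 17 measured cyclic nucleotide phosphodiesterases, which break down the nucleotides that Abcc4 and Abcc5 export, 0 passed 2-fold in either medium, and Pde1a did in fibroblast-conditioned medium with arrays centred on their nonblank median. Pde1a at 0.999 and Pde9a at -0.97 in fibroblast-conditioned medium came closest.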
